A study of Bombyx mori with 8 samples.

Results

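G-quadruplexes (G4) are DNA structures in which runs of guanines stack into planar tetrads. The peaks described here are G4 peaks of silkworm (Bombyx mori) chromatin that lie in the interior of the short autosomes. Sequences numbered 2 to 28 of the assembly were taken as autosomes, by number. A sequence counted as short when the largest peak end on it over the 4 peak lists was under 13 Mb. A peak counted as interior when its summit lay more than 500 kb from both ends of the sequence. The short autosomes were sequences 2, 20, 26, 27 and 28, at 8.32, 12.3, 11.5, 10.9 and 10.6 Mb. Sequence 20 was the last inside the limit and sequence 14, at 13.3 Mb, the first outside it. Their interiors held 6082 of the 55134 peaks in the 4 lists. Fat body replicates 1 and 2 gave 735 and 521 of these members, and brain replicates 1 and 2 gave 652 and 4174. The interiors of the 22 longer autosomes held 43586 peaks. On the short autosomes, 12, 8, 11 and 36 peaks lay 500 to 550 kb from the nearer end in fat body replicates 1 and 2 and brain replicates 1 and 2. In the same order, 9, 6, 6 and 43 lay 450 to 500 kb from it and were left out.

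The series profiled G4 structures by CUT&Tag, in which an antibody directs the transposase Tn5 to cut and tag nearby DNA. The labels describe 8 samples, and 4 are used here, 2 libraries of fat body and 2 of brain, all wild type, of strain P50, at the stage coded L5D3 and with BG4, an antibody fragment against G4 structures. Not analysed here were an IgG library, 2 libraries of BmN, an ovarian cell line, and a brain library with the stage code P0. The labels do not say whether replicates came from separate animals, so differences between replicates may be technical. All 8556 and 5894 peak names of the fat body lists carry 1H6, another G4 antibody, all 6759 names of brain replicate 1 carry BG4, and none of the 33925 names of brain replicate 2 carries either. Tissue and antibody therefore cannot be told apart if the names are right. Brain replicate 2 stands apart by its number of peaks, and each result is given per list. The number of reads behind a list is unknown, and lists hold only peaks past a q of 1e-05. Regions carry no gene annotation in their own build, so no gene is named.

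G4-forming sequences are dense at many gene promoters and at chromosome ends, and G4 antibodies mark the subset that folds in open chromatin. Silkworm chromosomes are holocentric, so that spindle attachment sites are spread along a chromosome with no single centromere. The larval fat body stores nutrients and carries out intermediary metabolism, and the brain holds the neurons and neurosecretory cells that time moulting and metamorphosis.

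The first comparison asked whether short autosomes carry as many interior peaks per Mb as longer ones. They carried fewer in both fat body lists and more in brain replicate 2. The short autosomes made up 12.3% of the interior length of the 27 autosomes, 48.6 Mb against 347.9 Mb in the longer ones. They held 9.48% and 9.87% of the interior autosomal peaks of fat body replicates 1 and 2, 10.8% of those of brain replicate 1 and 13.6% of those of brain replicate 2. Each sequence gave 1 density per list, and short and longer sequences were compared by a two-sided exact permutation test over all 80730 ways to choose 5 of 27 sequences. Adjusted p-values are Benjamini-Hochberg values over all 45 such tests.

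In fat body replicate 1, sequences 2, 20, 26, 27 and 28 had 15.7, 20.8, 12.5, 16.5 and 9.31 interior peaks per Mb, and the longer autosomes 15.1 to 27.0. Sequences 26 and 28 lay below every longer autosome and the other 3 among them. The means were 15 ± 4.34 peaks per Mb in short autosomes (SD, n = 5) and 20.1 ± 3.44 in longer ones (SD, n = 22), a ratio of 0.746 (exact permutation test, adjusted p = 0.0419). In fat body replicate 2 the same sequences had 10.8, 14.0, 9.75, 12 and 6.48 peaks per Mb, and the longer autosomes 11.1 to 18.0. Here sequences 2, 26 and 28 lay below all longer autosomes. The means were 10.6 ± 2.80 (SD, n = 5) and 13.6 ± 2.02 (SD, n = 22), a ratio of 0.778 (exact permutation test, adjusted p = 0.0420).

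Brain replicate 1 had 14.6, 14.8, 13.9, 13.6 and 10.1 interior peaks per Mb on sequences 2, 20, 26, 27 and 28, and 12.5 to 19.6 on the longer autosomes. Only sequence 28 lay outside that range. The means were 13.4 ± 1.90 in short autosomes (SD, n = 5) and 15.4 ± 1.92 in longer ones (SD, n = 22), and the ratio of 0.869 did not pass (exact permutation test, adjusted p = 0.0825). Brain replicate 2 had 89.4, 78.9, 82.7, 82.3 and 98.7 peaks per Mb, and 66.8 to 87.6 on the longer autosomes. Sequences 2 and 28 lay above every longer autosome. The means were 86.4 ± 7.88 (SD, n = 5) and 76.3 ± 5.77 (SD, n = 22), a ratio of 1.13 (exact permutation test, adjusted p = 0.0295).

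Sequence 28 held the extremes. Of the 27 autosomes it ranked 27 by density in both fat body lists and in brain replicate 1, and 1 in brain replicate 2. Sequence 20 was closest to the longer autosomes, at 1.04 and 1.03 times their mean in fat body and 0.961 and 1.03 times in brain. Without sequence 28 the 3 density calls were lost, at adjusted p = 0.174 and 0.199 in fat body and 0.142 in brain replicate 2 (exact permutation test), with the directions unchanged. Their log2 ratios were then −0.29, −0.23 and 0.13, against −0.42, −0.36 and 0.18 with all 5. Leaving out sequence 2 or sequence 26 also lost all 3 calls, at log2 ratios of −0.44, −0.37 and 0.17 without sequence 2 and −0.36, −0.33 and 0.19 without sequence 26. Leaving out sequence 20 or sequence 27 lost none. With the interior taken from 250 kb, both fat body calls were lost (exact permutation test, adjusted p = 0.0588 and 0.0573). From 2 Mb, those of fat body replicate 2 and brain replicate 2 were lost (exact permutation test, adjusted p = 0.0668 and 0.0683). Among peaks with a −log10 q of at least 20, fat body replicate 2 lost its call (exact permutation test, adjusted p = 0.0904). The directions were unchanged in these settings.

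**Figure D1:**
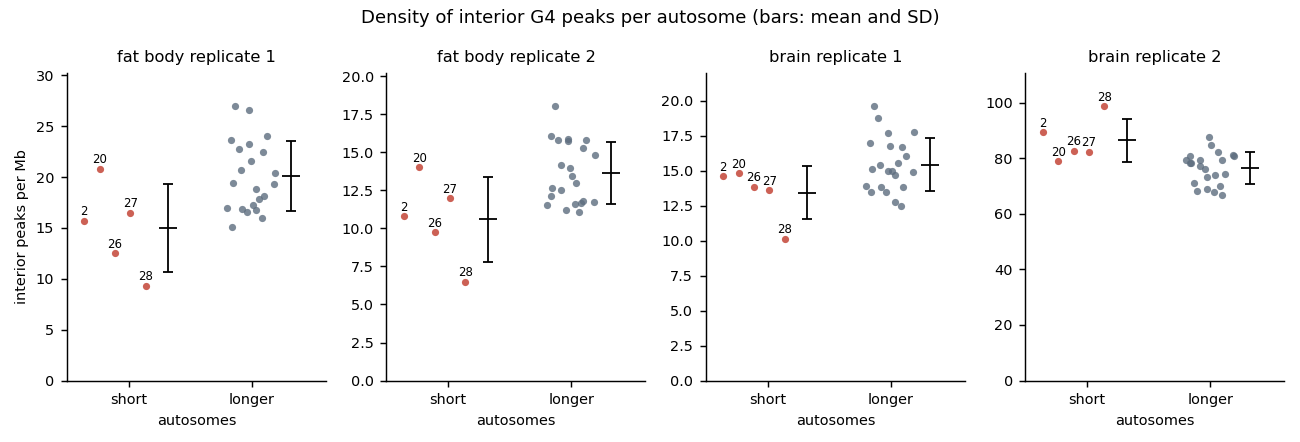
Interior peaks per Mb (y axis, from 0, a scale per panel) of each autosome in the 4 lists. Red points are the 5 short autosomes, labelled by sequence number, grey points the 22 longer ones, and bars the mean and SD. Sequence 28 is lowest of all autosomes in 3 panels and highest in that of brain replicate 2, at 98.7 peaks per Mb.

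The interior of a short autosome holds little sequence far from an end. Positions over 5 Mb from both ends came to 5.28 Mb in 4 short autosomes and 149.9 Mb in the 22 longer ones. There, fat body replicates 1 and 2 had 20.6 and 15.5 peaks per Mb on short autosomes and 23.2 and 15.6 on longer ones. Brain replicates 1 and 2 had 16.1 and 68.9 on short autosomes and 17.6 and 70.7 on longer ones. These densities were pooled over sequences and not tested. Among the short autosomes sequence 20, the longest at 12.3 Mb, weighed most in them, and sequence 2, at 8.32 Mb, had no such positions. Densities were therefore also compared at the same distances, 0.5 to 4 Mb from the nearer end, which every autosome has. This choice was made after the densities by distance were seen.

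At equal distances the difference in brain replicate 1 was close to 0 and that in brain replicate 2 kept its size. Brain replicate 1 had 13 ± 2.43 interior peaks per Mb in short autosomes (SD, n = 5) and 13.2 ± 1.91 in longer ones (SD, n = 22), a ratio of 0.982 (exact permutation test, unadjusted p = 0.807). Brain replicate 2 had 89.9 ± 6.81 and 80.5 ± 6.41, a ratio of 1.117 (exact permutation test, unadjusted p = 0.00917, adjusted p = 0.0769). Fat body replicate 1 had 14.6 ± 4.57 in short autosomes and 17.4 ± 3.95 in longer ones, a ratio of 0.839 (exact permutation test, unadjusted p = 0.175). Fat body replicate 2 had 10.2 ± 2.66 and 12.1 ± 1.97, a ratio of 0.845 (exact permutation test, unadjusted p = 0.0962). At these distances 0 of 45 exact permutation tests passed at an adjusted p of 0.05, and 9 were below that value unadjusted, against 18 and 24 over the whole interior.

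Brain replicate 2 had its highest short autosome densities nearer the ends. From 0.5 to 1 Mb from the nearer end it had 95.0 ± 15.5 peaks per Mb in short autosomes (SD, n = 5) and 80.6 ± 12.1 in longer ones (SD, n = 22). From 2 to 3 Mb it had 90.7 ± 9.42 and 82.9 ± 11.4, and from 4 to 5 Mb 80.0 ± 7.52 (SD, n = 4) and 78.2 ± 11.1 (SD, n = 22). In fat body replicate 1 the groups were alike from 0.5 to 1 Mb, at 16.4 ± 6.69 in short and 15.9 ± 9.57 in longer autosomes. They were farthest apart from 2 to 3 Mb, at 11.0 ± 3.59 in short and 17.2 ± 7.69 in longer autosomes. The bins were not tested.

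**Figure D2:**
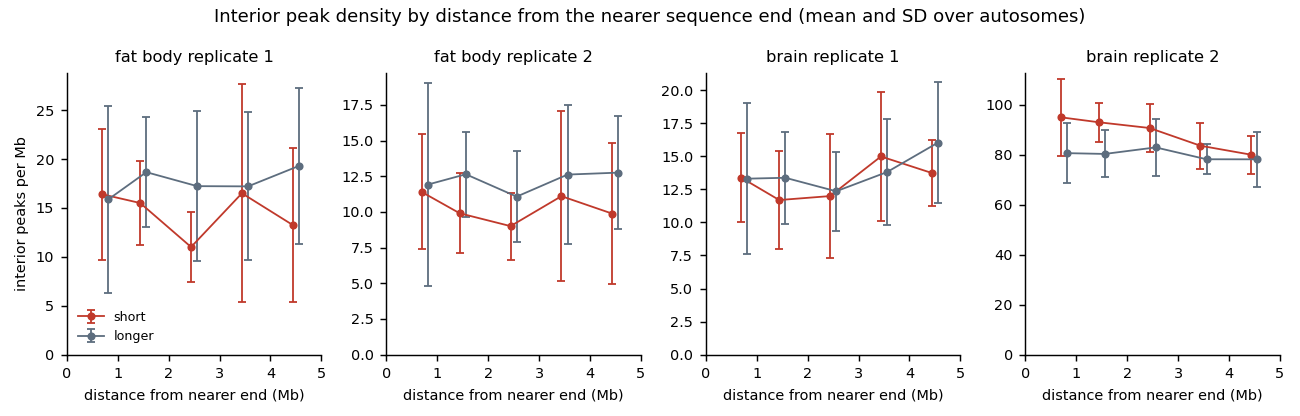
Mean interior peaks per Mb (y axis, from 0) in bins of distance from the nearer sequence end (x axis, Mb), with SD over autosomes as bars, for short (red) and longer (grey) autosomes in each list. In brain replicate 2 the short autosomes have 95.0 peaks per Mb in the first bin and 80.0 in the last, where the longer ones have 80.6 and 78.2.

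Next, the form of the peaks was compared. Interior peaks of short autosomes were wider and stronger in brain replicate 2, and the widths of the other 3 lists did not pass. In brain replicate 2, sequences 2, 20, 26, 27 and 28 had median widths of 609, 476, 505, 438 and 472 bp. Of the longer autosomes, sequence 24 had 560 bp and the next, sequence 14, had 448 bp. The means were 500 ± 65.4 bp in short autosomes (SD, n = 5) and 402 ± 42.5 bp in longer ones (SD, n = 22; exact permutation test, adjusted p = 0.0281). With each list shortened to the length of the shortest by −log10 q, the difference of 97.6 bp was 31.8 bp and did not pass (exact permutation test, adjusted p = 0.199). In the same setting the log2 density ratio of brain replicate 2 rose from 0.18 to 0.59 and passed (exact permutation test, adjusted p = 0.00697). In the full list of brain replicate 2, peaks wider than 1 kb were 436 of 4174 (10.4%) on short autosomes and 2053 of 26434 (7.77%) on longer ones. Their share was also higher on short autosomes in the other lists. It was 10.2% against 9.66% in fat body replicate 1, 8.25% against 6.27% in fat body replicate 2 and 6.90% against 6.14% in brain replicate 1. These pooled shares were not tested. In fat body replicates 1 and 2 the mean widths were 508 ± 30.2 and 510.2 ± 26.1 bp in short autosomes, and 520.0 ± 16.5 and 518 ± 22.9 bp in longer ones. Brain replicate 1 had 500.4 ± 26.3 bp in short and 495 ± 12.5 bp in longer autosomes. The interior covered by peaks of brain replicate 2 was 5.10 ± 0.650% in short and 3.95 ± 0.450% in longer autosomes (exact permutation test, adjusted p = 0.0152). At equal list lengths the log2 ratio of this covered share was 0.67, against 0.37 with the full lists. The other 3 lists covered less on short autosomes. Fat body replicate 1 covered 0.907 ± 0.301% in short and 1.21 ± 0.218% in longer autosomes (exact permutation test, adjusted p = 0.0441). That call was lost without sequence 28 (exact permutation test, adjusted p = 0.199). Fat body replicate 2 and brain replicate 1 covered 0.626% and 0.761% in short and 0.784% and 0.867% in longer autosomes. Neither passed (exact permutation test, adjusted p = 0.0658 and 0.111).

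Fold enrichment is the authors' value, the height of a peak's summit over the local background of the peak caller. It was compared between sequences of 1 list, except in the unscaled average over the lists given further below. In brain replicate 2 the median fold was 6.60, 5.86, 5.92, 5.66 and 5.77 on sequences 2, 20, 26, 27 and 28. Only sequence 24 among the longer autosomes, at 6.38, exceeded the lowest of these. The means were 5.96 ± 0.370 in short autosomes (SD, n = 5) and 5.11 ± 0.390 in longer ones (SD, n = 22; exact permutation test, adjusted p = 0.0152). At equal list lengths the difference of 0.86 was 0.98 and did not pass (exact permutation test, adjusted p = 0.0683). Brain replicate 1 had 5.37 ± 0.250 in short and 5.14 ± 0.129 in longer autosomes (exact permutation test, adjusted p = 0.0420). That difference of 0.24 was 0.15 at equal distances from the ends and 0.0077 among peaks with a −log10 q of at least 20. Fat body replicates 1 and 2 had means of 5.07 ± 0.355 and 7.0 ± 0.383 in short autosomes, and 5.05 ± 0.208 and 6.85 ± 0.286 in longer ones, and neither passed (exact permutation test, adjusted p = 0.842 and 0.403).

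The highest density ratio between short and longer autosomes in brain replicate 2 was that of its strongest peaks. Peaks above the 90th percentile of the list by fold, a fold of 11.9, came to 18.3, 11.4, 13, 8.76 and 12.6 per Mb on sequences 2, 20, 26, 27 and 28. On the longer autosomes sequence 24 had 14.4 per Mb and the next, sequence 17, had 8.98. The means were 12.8 ± 3.49 in short autosomes (SD, n = 5) and 6.76 ± 2.17 in longer ones (SD, n = 22), a ratio of 1.89 (exact permutation test, adjusted p = 0.0152). The highest 10% of the other lists did not pass. They came to 1.88 ± 0.517 per Mb in short and 1.97 ± 0.442 in longer autosomes in fat body replicate 1. In fat body replicate 2 they came to 1.08 ± 0.458 in short and 1.39 ± 0.350 in longer autosomes, and in brain replicate 1 to 1.59 ± 0.286 in short and 1.53 ± 0.368 in longer autosomes (exact permutation test, adjusted p = 0.753, 0.181 and 0.812 in this order).

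The peaks of each list were also split by overlap with another list. In brain replicate 2 the 2 classes ran in opposite directions, and in both fat body lists both classes were lower on short autosomes. Brain replicate 2 peaks that no other list overlapped came to 79.9, 67.2, 71.9, 67.8 and 90.9 per Mb on sequences 2, 20, 26, 27 and 28. Their mean was 75.5 ± 9.97 in short autosomes (SD, n = 5) and 63.3 ± 6.0 in longer ones (SD, n = 22; exact permutation test, adjusted p = 0.0281). Peaks that at least 1 other list overlapped (by 1 bp or more) ran the other way, at 10.8 ± 2.5 per Mb in short and 13 ± 2.27 in longer autosomes, and did not pass (exact permutation test, adjusted p = 0.115). The excess on short autosomes was among peaks called in brain replicate 2 alone. The overlapped class also depends on the other lists, which were sparser on short autosomes. Their density ratios were 0.869 in brain replicate 1 and 0.746 and 0.778 in fat body, and their part in this split was not tested. In fat body replicate 1 the ratio of short to longer autosomes was 0.761 for overlapped and 0.722 for other peaks (exact permutation test, adjusted p = 0.0420 for both). The ratios of fat body replicate 2 were 0.782 and 0.760 (exact permutation test, adjusted p = 0.0446 and 0.0658). In brain replicate 1 they were 0.807 for overlapped peaks (exact permutation test, adjusted p = 0.0337) and 1.121 for the others (adjusted p = 0.395). Both splits, by fold and by overlap, were chosen after the densities were seen. At equal distances from the ends the width, fold, highest 10% and unshared differences of this list were 78.7 bp, 0.74, a ratio of 1.76 and a ratio of 1.14, and none passed (exact permutation test, adjusted p = 0.0769, 0.0769, 0.0769 and 0.124). The covered share, width, fold, highest 10% and unshared calls of brain replicate 2 were also lost when sequence 2, 26 or 28 was left out (exact permutation test, adjusted p = 0.0542 to 0.104).

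**Figure D3:**
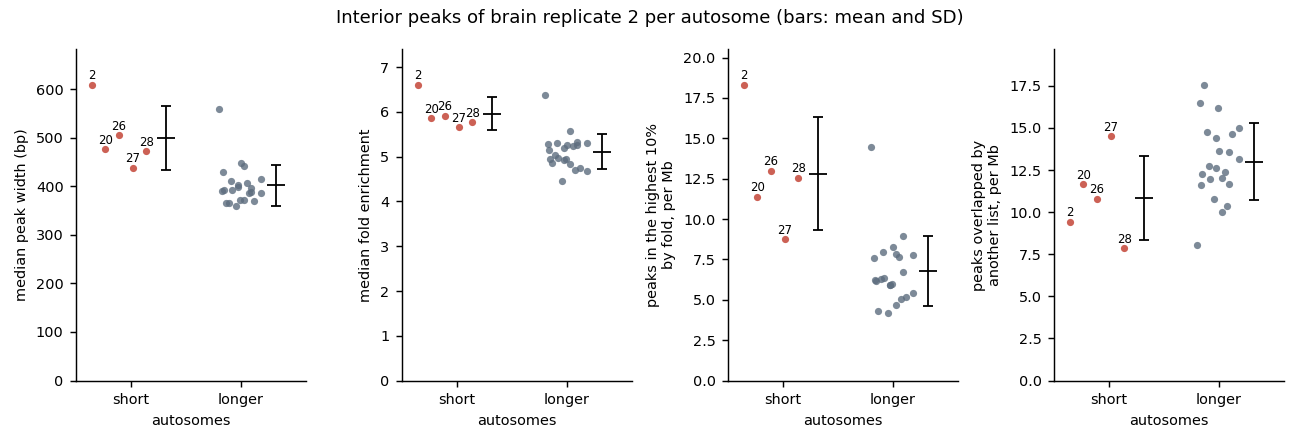
Interior peaks of brain replicate 2, 1 point per autosome (red short and labelled, grey longer; bars mean and SD; y axes from 0): median width in bp, median fold, peaks per Mb in the highest 10% by fold, and peaks per Mb overlapped by another list. The grey point above the other grey ones in the first 3 panels is sequence 24, with a median width of 560 bp, a median fold of 6.38 and 14.4 of the strongest peaks per Mb.

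Summit height and local background were worked out from fold and −log10 p and give the parts of the fold. Both are counts of the peak caller, called fragments here, and whether it counted read pairs or single reads is not known. In brain replicate 2 the median summit height was 70.1 ± 6.35 fragments in short autosomes (SD, n = 5) and 65.9 ± 3.58 in longer ones (SD, n = 22). Its median background was 11.3 ± 0.407 in short and 12.4 ± 1.15 in longer autosomes. Sequence 24 had the lowest background of all autosomes in this list, 10.1 fragments, with a summit height of 70. In brain replicate 1 the summit height was 49.6 ± 5.46 in short and 49.0 ± 2.88 in longer autosomes, and the background 8.64 ± 0.980 and 9.10 ± 0.50. In fat body replicate 1 the background was 9.25 ± 1.00 in short and 10.1 ± 0.770 in longer autosomes, and in fat body replicate 2 5.33 ± 0.747 and 5.41 ± 0.408. Of all peaks of fat body replicates 1 and 2, 14.8% and 14.0% were at or near the lowest background of their list. In brain replicates 1 and 2 these were 0.385% and 1.11%. Sequence 28 had the lowest background of the 5 short autosomes in brain replicate 1 and fat body replicate 2, 7.10 and 4.50 fragments. The part of background in the fold differences was not tested.

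Sharing was compared as the share of interior peaks of a list that another list overlapped. No difference in the sharing of fat body peaks passed, and a smaller share of brain peaks on short autosomes was overlapped by fat body peaks. Such a share also moves with the densities of both lists, which differed between short and longer autosomes, and the part of density in it was not tested. Of fat body replicate 1 peaks, replicate 2 overlapped 50.2 ± 3.06% in short autosomes (SD, n = 5) and 48.4 ± 2.56% in longer ones (SD, n = 22; exact permutation test, adjusted p = 0.268). Of fat body replicate 2 peaks, replicate 1 overlapped 69.7 ± 4.09% and 71.0 ± 3.53% (exact permutation test, adjusted p = 0.570). A brain list overlapped 48.3 ± 2.93% of fat body replicate 1 peaks in short autosomes and 46.9 ± 3.2% in longer ones, and 63.0 ± 3.99% and 62.3 ± 2.78% of replicate 2 peaks (exact permutation test, adjusted p = 0.476 and 0.719).

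Of brain replicate 1 peaks, a fat body list overlapped 47.7, 51.2, 42.1, 43.0 and 42.3% on sequences 2, 20, 26, 27 and 28, and 44.1 to 61.4% on the longer autosomes. Sequences 26, 27 and 28 lay below that range. The means were 45.2 ± 4.04% (SD, n = 5) and 51.2 ± 3.86% (SD, n = 22; exact permutation test, adjusted p = 0.0282). The fat body lists were also less dense there, by ratios of 0.746 and 0.778. Brain replicate 2 overlapped 46.7, 52.4, 60.0, 75.6 and 61.9% of brain replicate 1 peaks on the same sequences. Sequence 27 had the highest share of the 27 autosomes and sequence 2 the second lowest, above the 42.7% of sequence 24. The means were 59.3 ± 10.9% in short and 60.0 ± 5.39% in longer autosomes (exact permutation test of the means, adjusted p = 0.812). The SD among short autosomes exceeded the difference between the means, and the spread was not tested.

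Of brain replicate 2 peaks, brain replicate 1 overlapped 9.72 ± 2.5% in short autosomes (SD, n = 5) and 12.7 ± 2.35% in longer ones (SD, n = 22; exact permutation test, adjusted p = 0.0446). A fat body list overlapped 8.02 ± 2.66% and 10.9 ± 2.14% (exact permutation test, adjusted p = 0.0441). Brain replicate 2 was denser on short autosomes, by a ratio of 1.13, and the overlapping lists were sparser, by 0.869 in brain replicate 1 and by 0.746 and 0.778 in fat body. Per Mb, the brain replicate 2 peaks that another list overlapped did not pass. Sequence 28 had the lowest share of all autosomes in both, 6.57% and 4.03%. At equal distances from the ends the difference in overlap of brain replicate 1 with fat body was −5.09 percentage points, and those of brain replicate 2 were −1.31 with brain replicate 1 and −1.34 with fat body (exact permutation test, unadjusted p = 0.188, 0.269 and 0.283). The 3 sharing calls were also lost when sequence 2, 26 or 28 was left out. In the order above the differences were then −6.55, −2.59 and −2.77 points without sequence 2, −5.15, −3.07 and −2.80 without sequence 26, and −5.20, −2.17 and −1.90 without sequence 28. That of brain replicate 1 with fat body was also lost among peaks with a −log10 q of at least 20 (−4.09 points, exact permutation test, adjusted p = 0.247), at equal list lengths (−4.95, adjusted p = 0.0818) and for summits within 250 bp (−4.89, adjusted p = 0.0545).

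**Figure D4:**
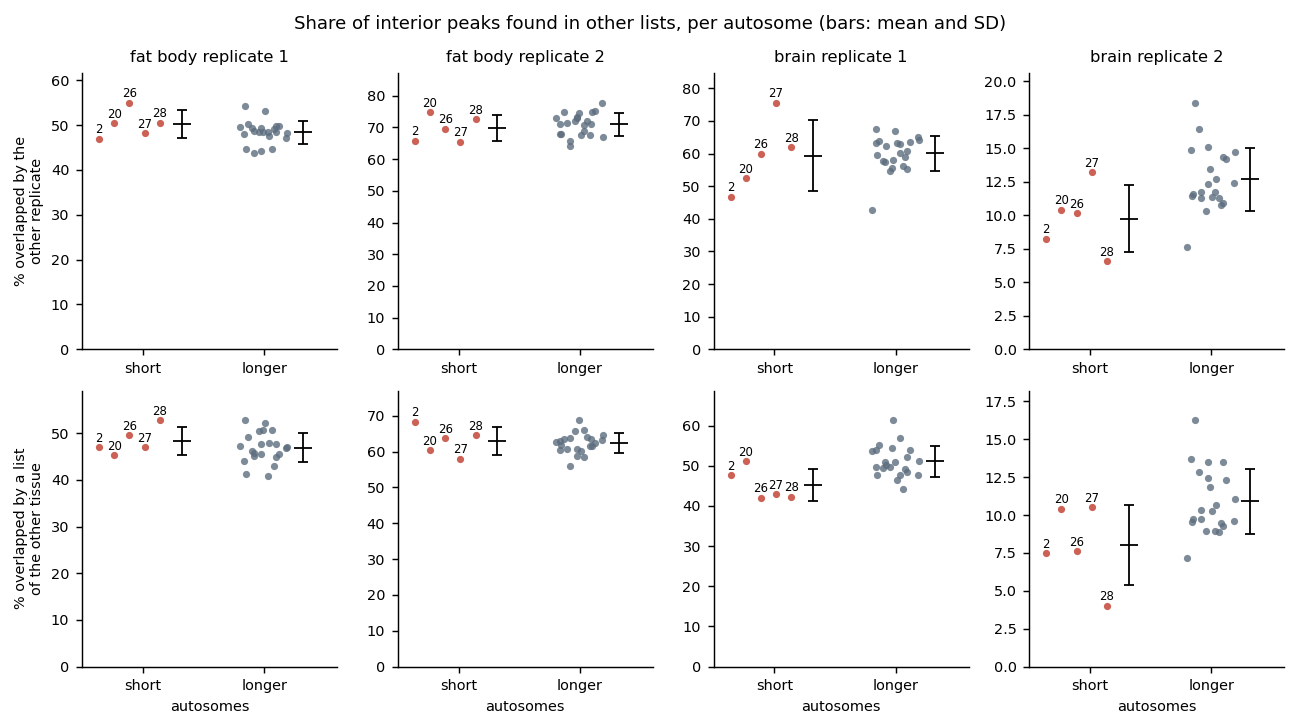
Percentage of each autosome's interior peaks overlapped by the other replicate of the tissue (top row) and by a list of the other tissue (bottom row), per list, with y axes from 0. Red labelled points are short autosomes, grey points longer ones and bars the mean and SD. In brain replicate 1 the short autosomes average 45.2% overlap with fat body and the longer ones 51.2%.

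The 4 lists were merged into regions by overlap of at least 1 bp, and a region was interior by its midpoint. On short autosomes 149 of 4881 interior regions (3.05%) were called in all 4 lists, and on longer autosomes 1257 of 32880 (3.82%). Over all autosomes the share was 3.72%. Fat-body-restricted regions, those with peaks of both fat body lists and no brain peak, were 111 (2.27%) on short and 999 (3.04%) on longer autosomes, and 2.94% over all. Brain-restricted regions, the reverse class, were 192 (3.93%) on short and 1555 (4.73%) on longer autosomes, and 4.63% over all. Per Mb of pooled interior, regions in all 4 lists came to 3.07 on short and 3.61 on longer autosomes. Fat-body-restricted regions came to 2.28 and 2.87, and brain-restricted regions to 3.95 and 4.47. The denominator of the shares counts regions of brain replicate 2 alone, whose unshared peaks were denser on short autosomes. Its part in the shares was not tested.

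Per Mb, no class passed with all 4 lists and 5 short autosomes. Regions called in all 4 lists came to 25, 41, 29, 37 and 17 on sequences 2, 20, 26, 27 and 28. Their density was 3.06 ± 0.808 per Mb in short autosomes (SD, n = 5) and 3.62 ± 0.659 in longer ones (SD, n = 22; exact permutation test, adjusted p = 0.177). Fat-body-restricted regions came to 12, 41, 22, 25 and 11 on the same sequences, 2.21 ± 0.941 per Mb in short and 2.85 ± 0.600 in longer autosomes (exact permutation test, adjusted p = 0.110). Sequence 20 alone reached 3.62 per Mb. Without it the log2 ratio was −0.62, against −0.37 with it, and passed (exact permutation test, adjusted p = 0.0148). Brain-restricted regions came to 20, 36, 46, 54 and 36, 3.90 ± 1.06 per Mb in short and 4.48 ± 0.894 in longer autosomes (exact permutation test, adjusted p = 0.306). Without brain replicate 1, when 1 brain list is enough for a region, the log2 ratio turned from −0.20 to 0.23 and passed (exact permutation test, adjusted p = 0.0184).

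Among regions that both lists of a tissue called, the restricted share was nearly the same in both kinds of autosome. Of regions in both fat body lists, 111 of 364 (30.5%) were fat-body-restricted on short and 999 of 3371 (29.6%) on longer autosomes. Of regions in both brain lists, 192 of 388 (49.5%) were brain-restricted on short and 1555 of 3241 (48.0%) on longer autosomes. These shares were not tested.

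On each short autosome, the region called in all 4 lists with the highest smallest fold is given in 1-based coordinates of the assembly of the lists. That assembly is known here only by the sequence names in the lists, and no note used here names its build. The strongest by smallest fold, at 7393961 to 7394988 of sequence 20, had folds of 14.6 and 12.9 in fat body, against 10.7 and 16.5 in brain. Its summits held 148 and 105 fragments in fat body, against 115 and 130 in brain. Sequence 27 at 3818455 to 3820212 was the widest of the 5, at 1758 bp, with folds of 9.92 and 10.6 in fat body, against 9.54 and 9.36 in brain. On sequence 2 the region at 4745004 to 4745528 had folds of 11.5 and 10.9 in fat body, against 9.06 and 9.38 in brain. Sequence 26 at 5231683 to 5232137 had folds of 8.37 and 15.3 in fat body, against 15.4 and 18.4 in brain, over summits of only 53 to 65 fragments. Sequence 28 had the region of these 5 with the lowest smallest fold, at 5510599 to 5511271, with folds of 7.23 and 11.2 in fat body, against 8.95 and 7.67 in brain. Its summits were not low, at 108 and 222 fragments in fat body, against 158 and 207 in brain.

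Of the brain-restricted regions, that with the highest smaller fold lay at 6194422 to 6194982 of sequence 28, where brain replicates 1 and 2 had folds of 11.4 and 12.6 over summits of 116 and 174 fragments. The nearest fat body peak lay 503883 bp away. The next was at 6078997 to 6079513 of sequence 27 (folds 11.2 and 12.2), 50793 bp from the nearest fat body peak. The third, at 5517485 to 5518039 of sequence 28 (folds 13.2 and 10.8), lies 6219 bp from a fat body peak in the 4-list region named above on that sequence. By the same rule 3 fat-body-restricted regions were taken, and brain peaks lay close to all of them. On sequence 2 the region at 5548984 to 5549338 had folds of 10.7 and 12.4 in fat body replicates 1 and 2, with a brain peak 217 bp away. The region at 2202320 to 2203140 of sequence 28 had folds of 10.5 in both, 1118 bp from a brain peak. That at 7592154 to 7592633 of sequence 20 had 10.2 and 13.6, with a brain peak at 272 bp. These 3 regions thus lack an overlapping brain peak, not a neighbouring one. The distances are to the nearest peak of either list of a tissue, and the lists differ in density. On short autosomes the median interval between summits was 8.49 kb in brain replicate 2 and 41.9 kb in brain replicate 1. In fat body replicates 1 and 2 it was 22.3 and 44.0 kb. The part of density in these distances was not tested.

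Within the short autosomes fat body peaks were spread unevenly, and within the longer ones no less so. The variance of counts over 500-kb windows was 3.81 and 2.46 times the mean in fat body replicates 1 and 2 on short autosomes, and 5.20 and 2.85 times on longer ones. In brain replicates 1 and 2 it was 1.85 and 1.74 times on short and 2.16 and 2.06 times on longer autosomes. The longest interval between summits was 1137 and 1150 kb in fat body replicates 1 and 2 on short autosomes, and 1395 and 1468 kb on longer ones. Sequence 26 held the longest stretch free of fat body peaks, 1137 kb at 7690835 to 8827737, with 6 and 85 peaks of brain replicates 1 and 2 and 4 brain-restricted regions. On sequence 28 the stretch from 5652390 to 6698865, 1046 kb, held 7 and 82 brain peaks and 5 brain-restricted regions, the named one at 6194422 among them. Such stretches were chosen for holding no fat body peak, so a region there in both brain lists is brain-restricted by definition. Of the 94 interior 500-kb windows of short autosomes, 5 and 7 were empty in fat body replicates 1 and 2 (5.32% and 7.45%), where each fat body list was empty in 28 of 685 windows of longer autosomes (4.09%). The window with the highest mean relative density, sequence 20 from 3000001 to 3500000, held 33 and 19 fat body peaks and 14 and 51 brain peaks. The next, sequence 26 from 9500001 to 10000000, held 14 and 11 fat body peaks and 13 and 49 brain peaks. The lowest, sequence 28 from 6000001 to 6500000 and sequence 26 from 8000001 to 8500000, held 0 fat body peaks, 2 and 3 peaks of brain replicate 1 and 36 peaks each of brain replicate 2. Over all 94 windows fat body replicates 1 and 2 ran from 0 to 33 and 0 to 19 peaks, and brain replicates 1 and 2 from 1 to 17 and 20 to 61.

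Averaged over the 4 lists, 1 of 6 measures passed. Only density was first scaled within each list. The average covered share is mostly that of brain replicate 2, at 5.10% in short autosomes against 0.63 to 0.91% in the other lists. Median fold was 5.85 ± 0.219 in short autosomes (SD, n = 5) and 5.53 ± 0.171 in longer ones (SD, n = 22; exact permutation test, adjusted p = 0.0282), and for every average except density leaving out 1 library changed the direction or the call. Density relative to the longer autosomes averaged 0.881 ± 0.110 in short and 1 ± 0.103 in longer autosomes (exact permutation test, adjusted p = 0.0658), and its log2 ratio of −0.18 was −0.33 without brain replicate 2 and −0.11 without fat body replicate 1. Covered share and width, both higher in short autosomes, and both overlap shares, both lower, did not pass either. Without brain replicate 2 the fold difference was 0.14, against 0.32 with it, and covered share and width turned to lower in short autosomes.

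Over the 27 autosomes, interior density and sequence length were related in opposite directions in different lists, given as a description, since all sequences of a list share its library. Spearman's rho was 0.46 and 0.38 in fat body replicates 1 and 2 and 0.27 and −0.66 in brain replicates 1 and 2 (Pearson's r 0.51, 0.48, 0.34 and −0.68). Over the 22 longer autosomes alone, rho was 0.19 and 0.12 for the fat body lists, and 0.05 and −0.51 for brain. In brain replicate 2 the relation was thus present without the short autosomes, and in the other 3 lists little of it was. The densities of fat body replicates 1 and 2 went together across the 27 sequences (rho = 0.90), as did brain replicate 1 with each of them (rho = 0.86 and 0.78). Brain replicate 2 had a rho of −0.45 and −0.48 with the fat body lists and −0.17 with brain replicate 1.

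**Figure D5:**
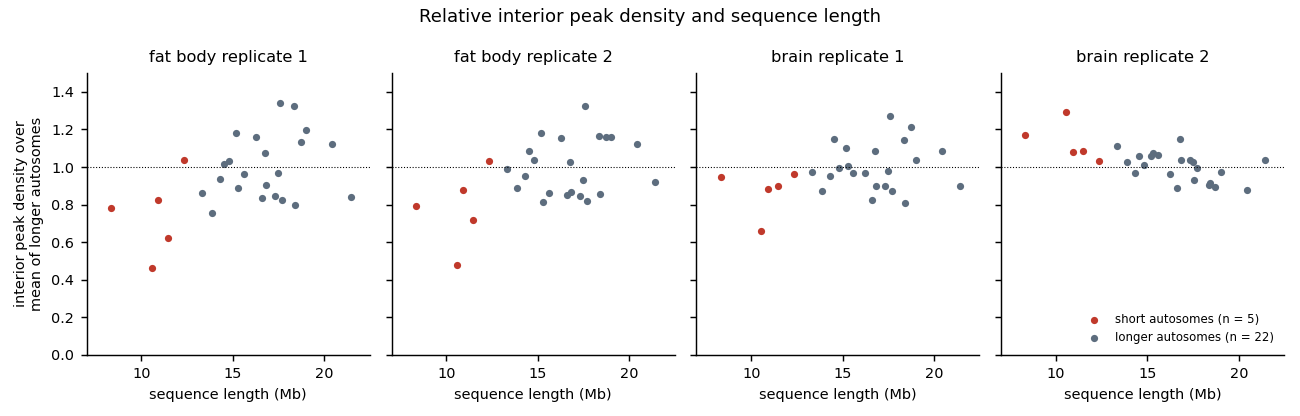
Interior peak density of each autosome over the mean of the longer autosomes (y axis, from 0; dotted line at 1) against sequence length (x axis, Mb), per list. The 5 short autosomes are red and the 22 longer ones grey. Red points fall mostly below the line in both fat body lists and in brain replicate 1, and all above it in brain replicate 2.

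Tissues were compared through the log2 ratio of short to longer interior density in each library. It was −0.42 and −0.36 in fat body replicates 1 and 2 (mean −0.39) and −0.20 and 0.18 in brain replicates 1 and 2 (mean −0.01). The difference of −0.38 between the tissue means had an exact permutation p of 0.33, the smallest that 2 against 2 libraries can give. The brain libraries lay on both sides of 0, and without brain replicate 2 the difference was −0.19. The data thus do not show that the tissues differ in the density of short autosomes.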

How the data were processed

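CUT&Tag peak lists of 4 libraries were used, 2 of fat body and 2 of brain. MACS2 2.1.0, deepTools 3.3.0, Picard, Bowtie2 and Trim Galore are named in the submitters' processing notes, with no order or settings given here. No note used here names the genome build, and the lists give only the sequence names of the assembly. Each deposited list belongs to 1 library. The fold enrichment (a ratio), −log10 p and −log10 q of each peak are the authors' values. Lists start at a −log10 q of 5.01 to 5.21.

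Sequence length was the largest peak end over the 4 lists. Density was interior peaks over interior length. Overlap needed 1 bp. Summit height and background came from taking fold as (height + 1)/(background + 1) and p as a Poisson upper tail, and heights were whole within 0.02 for 100% of peaks. Sequences were the unit of the two-sided exact permutation tests (2 times the smaller tail, smallest p 2.48e-05), which treat sequences as exchangeable, and results of 1 list are not independent of each other. The functions were tested on simulated lists. Python 3.11.15, numpy 2.4.6 and scipy 1.17.1 were used. Named regions followed a rule: per short autosome the region in all 4 lists with the highest smallest fold, the 3 restricted regions per tissue with the highest smaller fold, and the 2 densest and 2 sparsest 500-kb windows. Sequences 14, 17 and 24 were named after their values were seen. The members and comparisons were chosen with earlier results of these data known. No genome sequence was used.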

Additional observations from a re-analysis of the deposited data

Results flagged for a closer look

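In 4 measures both libraries of one tissue moved one way on short autosomes and both of the other tissue the opposite way, and these differences between tissues were not tested. Median width differed from that of longer autosomes by −12.2 and −7.55 bp in fat body and by 5.85 and 97.6 bp in brain, so fat body minus brain was −61.6 bp, mostly from brain replicate 2. The share of peaks overlapped by a list of the other tissue differed by 1.4 and 0.66 percentage points in fat body and by −5.94 and −2.90 points in brain, so fat body minus brain was 5.45 points. The density of peaks that no other list overlapped had log2 ratios of short to longer autosomes of −0.47 and −0.40 in fat body, against 0.17 and 0.25 in brain, a difference of −0.64. For the highest 10% of peaks by fold the log2 ratios were −0.07 and −0.36 in fat body, against 0.05 and 0.92 in brain, a difference of −0.70. In each measure at least 1 library turned its direction under another processing choice. These were fat body replicate 2 and brain replicate 1 in width, fat body replicate 2 in overlap, brain replicate 1 in unshared density, and fat body replicate 1 and brain replicate 1 in the highest 10%.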

How the results depend on the processing

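Of 752 alternative values, the 4-list averages changed as follows (log2 ratios for densities and covered share). Relative density (−0.18) passed at a 12-Mb limit (−0.24), a 14-Mb limit (−0.17) and without sequence 20 (−0.24), and was −0.045 at equal list lengths, −0.080 at equal distances, −0.11 at a −log10 q of at least 20 and −0.33 to −0.11 without each library. Covered share (0.12) passed at a −log10 q of at least 20 (0.24) and without brain replicate 1 (0.16), fat body replicate 1 (0.21) or fat body replicate 2 (0.17), and was −0.32 without brain replicate 2 and 0.042 at equal list lengths. The fold call (0.32) was lost at equal distances (0.37, a choice made after the data were seen), without sequence 2, 26 or 28 (0.26, 0.29 and 0.29) and without brain replicate 2 (range without each library 0.14 to 0.42). Width (20.9 bp) was −0.216 bp at equal list lengths and −4.62 to 31.98 bp without each library, and passed without fat body replicate 2 (30.4 bp). Overlap by the same tissue (−0.792 points) became 1.8 at a −log10 q of at least 20, 0.53 without sequence 2, and −1.84 to 0.256 without each library. Overlap by the other tissue (−1.69 points) ran from −2.5, which passed, to 0.723 without each library. Fat-body-restricted regions (−0.37) passed at a 12-Mb limit (−0.64), without sequence 20 (−0.62), without brain replicate 1 (−0.49) and without fat body replicate 2 (−0.44). They were −0.37 to −0.49 without each library and −0.21 without sequence 28. Brain-restricted regions (−0.20) gave 0.020 at equal distances and −0.23 to 0.23 without each library.

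In single lists 114 alternative values kept the direction of a passing result but no longer passed, and 8 now passed. The direction turned as follows. Top-fold density in fat body replicate 1 became 0.021 at 2 Mb from ends, 0.14 at equal distances and 0.086 without sequence 28, and in brain replicate 1 −0.066 at 2 Mb and −0.021 without sequence 26. Unshared density of brain replicate 1 became −0.014 at equal list lengths, −0.0048 without sequence 2, and −0.043 to 0.17 without each library. Fold in fat body replicate 1 became −0.031 and −0.095 without sequence 26 or 28 and −0.088 over pooled peaks. Overlap of fat body replicate 2 by brain became −0.152 and −0.756 points at 1 and 2 Mb, −0.677 without sequence 2 and −0.112 over pooled peaks. Overlap of brain replicate 1 by its replicate became 1.34, 0.717 and 2.51 at limits of 12 Mb, 14 Mb and a −log10 q of at least 20, 2.42 and 1.006 without sequence 2 or 20, and 0.0558 with 0.5 of a peak covered. That of fat body replicate 2 became 1.96 at a −log10 q of at least 20 and 1.31 for summits within 250 bp. Width of brain replicate 1 became −5.8, −2.3 and −0.295 bp at a −log10 q of at least 20 and without sequence 27 or 28, and of fat body replicate 2 0.761 bp at 12 Mb. The causes were not tested.

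The tissue difference ran from −0.57 to −0.19 without each library. With the replicate number as a replicate block it was −0.38 (exact permutation p = 0.5, the smallest that 2 pairs allow), and nothing in the labels says that the numbers pair the samples. Peak lists hold no read depth, so the depth behind these counts is unknown.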
